A study of Mus musculus with 58 samples.

Results

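A set of 10 genes of the olfactory bulb and of the neuroblasts that migrate into it was followed through 58 libraries of mouse prefrontal cortex. Eomes, Cdhr1, Th, Sp8, Meis2, Dlx1, Dlx2, Dlx5, Dlx6 and Dcx were matched by symbol to the Ensembl identifiers of the deposited table, and all 10 were present among its 18088 genes. They were chosen as a measure of dissection, that is of how much neighbouring tissue a piece of prefrontal cortex carries; whether dissection set their levels was not tested. The C57BL/6J mice carried the label wild type (WT) or heterozygous (HT) at Tanc2, a synaptic scaffold gene. Vehicle, fluoxetine or lithium reached the pups in maternal milk on postnatal days 3 to 24, and the cortex was collected on day 25. Fluoxetine is a serotonin reuptake inhibitor and lithium a mood stabiliser, and the sources used here do not give their doses or the kind of Tanc2 allele. The 6 arms of genotype and drug held 9 or 10 mice each, with 4 or 5 of each sex.

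The olfactory bulb lies in front of the frontal cortex and sends odour signals onward through its mitral and tufted cells, excitatory projection neurons that express the T-box factor Eomes (Tbr2) and the cadherin Cdhr1. Its interneurons are inhibitory and arise after birth too: neuroblasts carrying the microtubule protein Dcx leave the subventricular zone, migrate in the rostral migratory stream and become granule and periglomerular cells. The homeodomain factors Dlx1, Dlx2, Dlx5, Dlx6 and Meis2 and the zinc finger factor Sp8 act in that lineage, and some periglomerular cells make dopamine with tyrosine hydroxylase (Th). Of these genes the Dlx factors, Meis2, Sp8 and Dcx are also expressed by inhibitory neurons or immature cells outside the bulb, whereas Eomes and Cdhr1 mark few other cells of the postnatal forebrain.

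The 10 genes lie on 7 chromosomes of GRCm38. Eomes (ENSMUSG00000032446) lies on chromosome 9 from 118478212 to 118486132, Cdhr1 (ENSMUSG00000021803) on chromosome 14 from 37077857 to 37098347 and Th (ENSMUSG00000000214) on chromosome 7 from 142892752 to 142931128. Sp8 (ENSMUSG00000048562) lies on chromosome 12 from 118846329 to 118852576 and Meis2 (ENSMUSG00000027210) on chromosome 2 from 115863064 to 116065839. Dlx1 (ENSMUSG00000041911) and Dlx2 (ENSMUSG00000023391) form a pair on chromosome 2, from 71528113 to 71533981 and from 71543408 to 71546754, pointing towards each other with 9426 bases between them. Dlx6 (ENSMUSG00000029754) and Dlx5 (ENSMUSG00000029755) form the other pair on chromosome 6, from 6863334 to 6868568 and from 6877805 to 6882085, with 9236 bases between them. Dcx (ENSMUSG00000031285) lies on chromosome X from 143855842 to 143933311. Antisense genes overlap Eomes (Gm33460), Dlx1 (Dlx1as) and Dlx6 (Dlx6os1 and Dlx6os2). The library kit marks strand, per the labels' protocols, but the sources used here do not say whether the counting used it, so values of these overlapping genes are uncertain.

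The promoters of 6 members are shown because the 10 genes moved together from library to library, as described below. Each is the 250 bases before the gene's outermost annotated start, from RefSeq on GRCm38.p6, written 5′ to 3′ on the gene's strand. Capitals mark matches on either strand to 4 short sequences, each a core known to be bound by one factor class among the members: TAATTA for DLX homeodomains, TGACAG for MEIS, TCACACC for T-box factors and GGGCGG for SP zinc fingers.
Eomes (chr9:118477939-118478188, plus strand): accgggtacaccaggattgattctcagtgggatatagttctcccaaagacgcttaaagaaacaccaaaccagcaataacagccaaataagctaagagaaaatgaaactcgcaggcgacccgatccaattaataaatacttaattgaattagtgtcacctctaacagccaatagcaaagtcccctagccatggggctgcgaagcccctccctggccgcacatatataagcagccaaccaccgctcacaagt
Cdhr1 (chr14:37098348-37098597, minus strand): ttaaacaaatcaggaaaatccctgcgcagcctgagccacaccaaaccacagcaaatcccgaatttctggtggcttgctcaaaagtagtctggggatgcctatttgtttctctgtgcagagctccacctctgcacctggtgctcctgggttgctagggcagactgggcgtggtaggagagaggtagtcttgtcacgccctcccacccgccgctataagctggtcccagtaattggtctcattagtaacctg
Th (chr7:142899996-142900245, minus strand): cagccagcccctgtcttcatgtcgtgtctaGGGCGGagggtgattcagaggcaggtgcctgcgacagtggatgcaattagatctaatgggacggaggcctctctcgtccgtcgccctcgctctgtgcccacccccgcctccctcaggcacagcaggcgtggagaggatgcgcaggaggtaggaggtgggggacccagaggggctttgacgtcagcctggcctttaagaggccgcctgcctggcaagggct
Sp8 (chr12:118846079-118846328, plus strand): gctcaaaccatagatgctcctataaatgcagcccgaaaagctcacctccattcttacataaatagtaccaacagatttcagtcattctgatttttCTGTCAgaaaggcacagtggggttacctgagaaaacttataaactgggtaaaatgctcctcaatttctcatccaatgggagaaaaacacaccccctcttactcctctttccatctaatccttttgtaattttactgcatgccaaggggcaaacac
Dlx2 (chr2:71546755-71547004, minus strand): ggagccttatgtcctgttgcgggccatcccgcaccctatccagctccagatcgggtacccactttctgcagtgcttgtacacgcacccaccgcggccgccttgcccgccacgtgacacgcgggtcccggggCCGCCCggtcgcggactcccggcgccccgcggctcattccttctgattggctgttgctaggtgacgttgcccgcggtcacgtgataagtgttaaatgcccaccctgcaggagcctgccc
Dcx (chrX:143933220-143933469, minus strand): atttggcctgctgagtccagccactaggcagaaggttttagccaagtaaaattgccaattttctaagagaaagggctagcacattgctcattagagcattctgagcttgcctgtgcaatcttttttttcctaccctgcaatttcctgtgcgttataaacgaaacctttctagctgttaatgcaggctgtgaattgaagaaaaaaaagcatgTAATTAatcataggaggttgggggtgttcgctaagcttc

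The Eomes and Cdhr1 promoters hold none of the 4 sequences. Th and Dlx2 hold 1 SP match each, Sp8 holds 1 MEIS match and Dcx 1 DLX match, and since no printed promoter holds more than 1 match none overlaps another. Over all 32851 mouse promoters of this length in the same table, the DLX core was present in 4.84%, the MEIS core in 15.9%, the T-box sequence in 3.33% and the SP sequence in 32.7%. Promoters were listed for 8 members, with 11 starts in all. No motif was common to the set.

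Levels were first set against each other per kilobase of exon, in normalized reads (reads divided by each library's size factor) per kb. Over the 58 libraries the median was 441 for Meis2, 286 for Cdhr1, 262 for Dlx1, 240 for Dcx, 123 for Th, 98.6 for Dlx2, 81.7 for Dlx5, 57.2 for Sp8, 51.2 for Dlx6 and 43.4 for Eomes. In every sentence below the unit is normalized reads per gene, not per kb. Cortical identity was present throughout: Slc17a7, the vesicular glutamate transporter of cortical excitatory neurons, ran from 36296 to 56488. Total reads recovered per library ran from 23270000 to 37800000. The HT label did not go with less Tanc2 (means of 7953 to 8093 in the HT arms and 7468 to 7541 in the WT arms), so the genotypes are called HT-labelled and WT-labelled. Gm10221, a pseudogene, had reads in 27 libraries, which were all those of lithium mice, the HT fluoxetine females and some WT fluoxetine females, and 0 in the other 31. It is used below only to split the libraries, and what the split stands for was not tested.

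**Figure D1:**
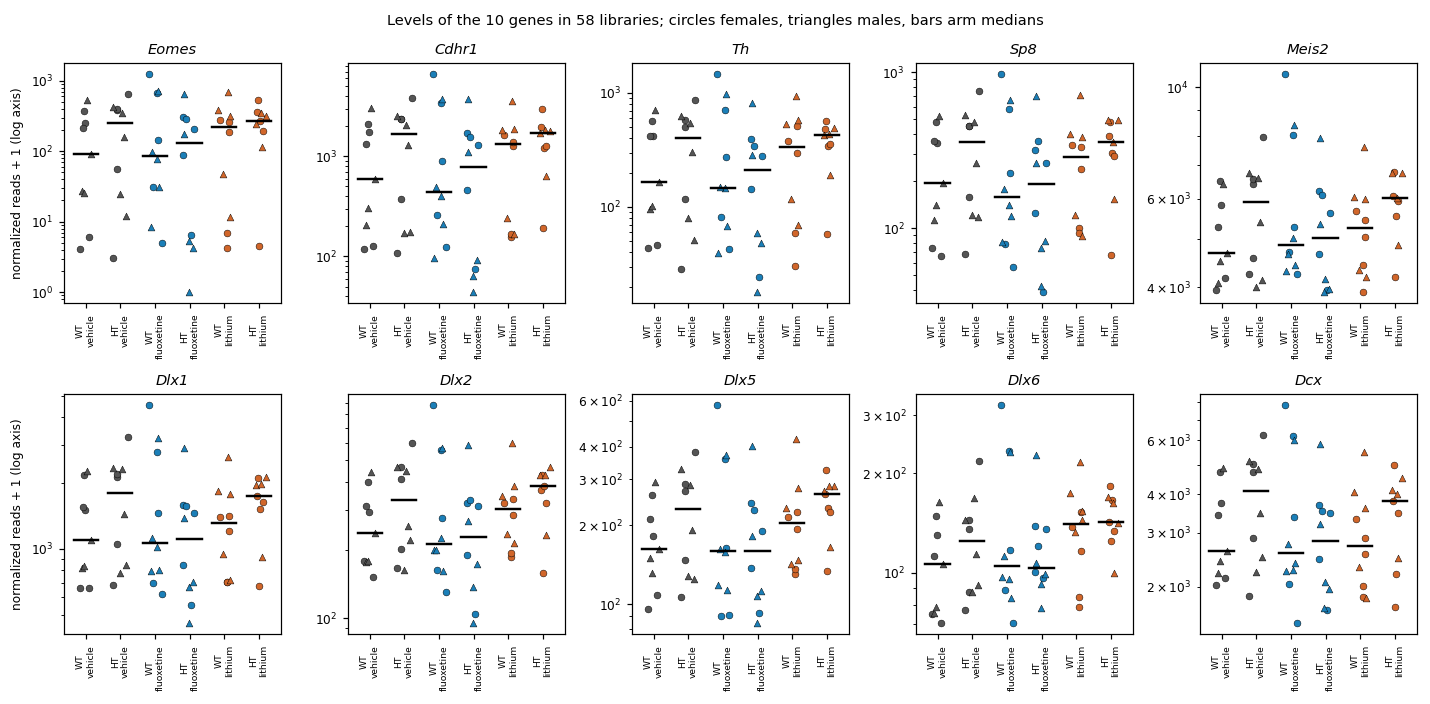
Normalized reads plus 1 (log axis) of each of the 10 genes in 58 libraries, by arm of genotype and drug, with females as circles, males as triangles and arm medians as bars. Every pair of arms overlaps for each gene, and WT fluoxetine female 3 is highest for all 10 genes.

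Among the projection neuron genes, Cdhr1 ranged 154-fold between libraries, from 43.0 in HT fluoxetine male 1 to 6643 in WT fluoxetine female 3. In vehicle mice its lowest, median and highest levels were 118, 586 and 3036 in the 9 WT libraries, and 106, 1666 and 3836 in the 10 HT-labelled libraries. Under fluoxetine the corresponding levels were 94.9, 444 and 6643 in WT (n = 10) and 43.0, 782 and 3742 in HT-labelled mice (n = 10). Under lithium they were 155, 1318 and 3577 in WT (n = 10) and 192, 1711 and 2940 in HT-labelled mice (n = 9). Each arm thus held both a library with 192 reads of Cdhr1 or fewer and a library with 2940 or more, and every arm overlapped every other.

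Eomes, the transcription factor of the same mitral and tufted cells, went from 0 reads in HT fluoxetine male 1 to 1246 in WT fluoxetine female 3. The count of 0 allows a level of up to 3.91 normalized reads in that library, counting error only. Lowest, median and highest levels were 3.08, 89.7 and 531 in WT vehicle and 2.06, 254 and 641 in HT vehicle. They were 3.94, 85.7 and 1246 in WT fluoxetine and 0, 130 and 653 in HT fluoxetine. They were 3.26, 222 and 685 in WT lithium and 3.59, 264 and 534 in HT lithium. Under 10 normalized reads were found in 12 of the 58 libraries, spread over all 6 arms, and every pair of arms overlapped.

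Th, the rate-limiting enzyme of dopamine synthesis, ran from 16.9 to 1462 with a median of 290, an 86.3-fold range. Its arm medians lay between 147 in WT fluoxetine and 426 in HT lithium. Sp8, a factor of bulb interneuron development, ran from 37.8 in HT fluoxetine female 4 to 973, 25.7-fold, with arm medians between 158 in WT fluoxetine and 357 in HT vehicle. Both genes were low and high in the libraries where Eomes and Cdhr1 were.

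The Dlx factors kept a level in every library. Dlx1 ran from 456 to 4546 (median 1412, 9.97-fold), Dlx2 from 93.8 to 879 (median 281, 9.37-fold), Dlx5 from 83.4 to 576 (median 185, 6.91-fold) and Dlx6 from 69.2 to 322 (median 122, 4.65-fold). Dcx ran from 1517 in WT fluoxetine female 5 to 7829, with a median of 3034. Meis2 had the narrowest range, 2.72-fold, from 3910 in WT lithium female 3 to 10629. Eomes, Cdhr1, Th and Sp8, the 4 genes with the lowest minima, were thus also the 4 with the widest ranges.

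Within the 12 groups of genotype, drug and sex, the residual SD on the log2(value + 1) scale was 2.78 for Eomes, the 11th largest of 17925 genes tested. It was 2.0 for Cdhr1 (rank 61), 1.73 for Th (rank 94), 1.28 for Sp8 (rank 198), 0.82 for Dlx1 (rank 494), 0.73 for Dlx2 (rank 731) and 0.69 for Dlx5 (rank 864). Dcx had 0.62, Dlx6 0.51 and Meis2 0.36. The median gene had an SD of 0.155 and the 95th percentile was 0.686, so 7 members lay above the 95th percentile and all 10 above the median.

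The deviations of the 10 genes from their group means were then correlated over the 58 libraries. All 45 pairs were positive, with Pearson's r from 0.841 (Dlx6 and Eomes) to 0.988 (Dlx1 and Sp8) and a median of 0.955, and Spearman's rho from 0.883 to 0.988. Permutation tests within groups, with 100000 resamples and Benjamini-Hochberg adjustment over the 45 pairs, gave an adjusted p of 1e-05 for each, the smallest they can give. Without the 2 libraries farthest from the median the range of r was 0.849 to 0.989. Among the 31 libraries without Gm10221 reads it was 0.885 to 0.991, and among the 27 with them 0.760 to 0.986. Genes share library and depth in these correlations, and 8 of the members belong to the interneuron lineage and 2 to projection neurons, and r between the lineages was as high as 0.987 for Th and Cdhr1. As in any bulk tissue, fewer cells of a type and less RNA per cell cannot be told apart.

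**Figure D2:**
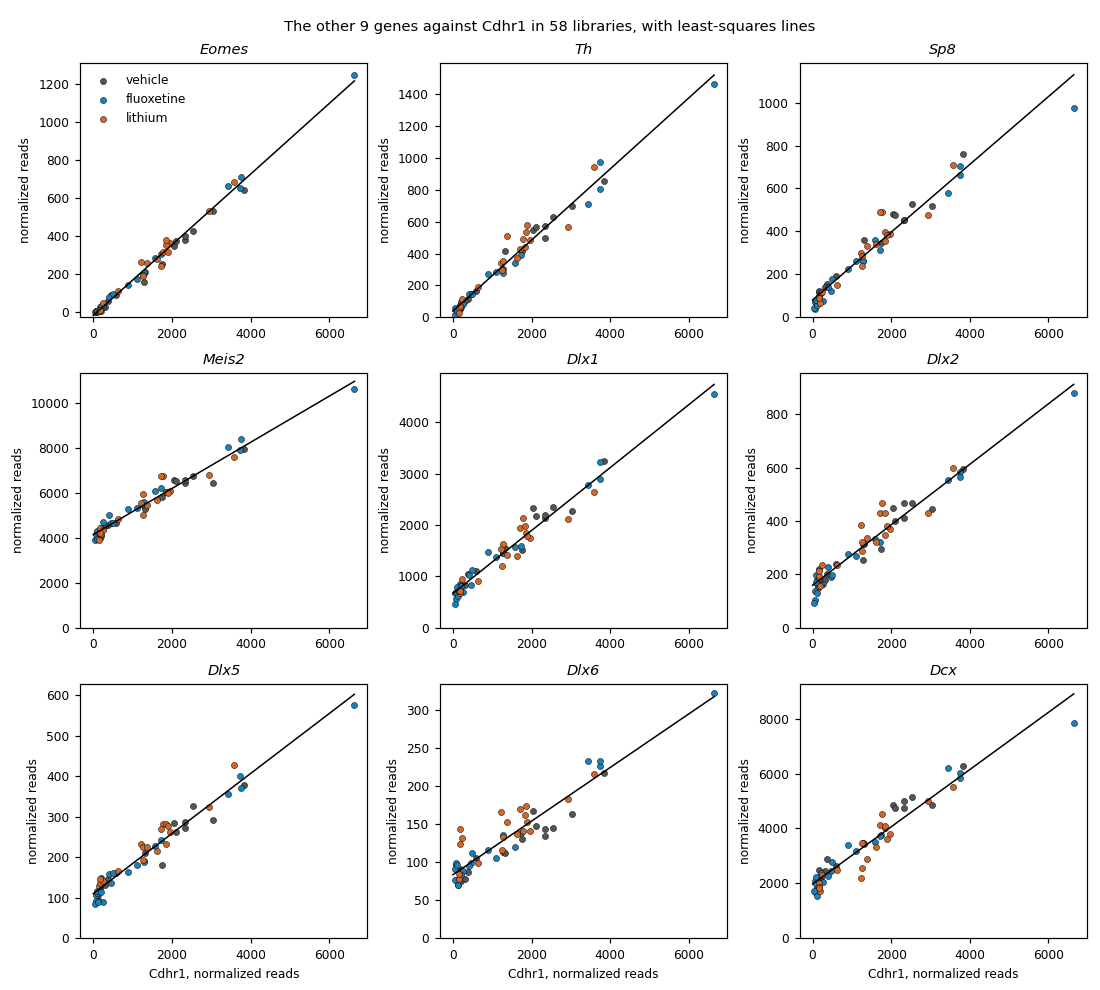
Normalized reads of the other 9 genes against Cdhr1 in each of 58 libraries, coloured by drug, with the least-squares line over all libraries. Points lie close to the line in every panel; the lines of Eomes and Th start near 0 and those of Meis2, Dcx and the Dlx genes start well above it.

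A straight line on the Cdhr1 level described most of the variance of each of the other members, from 87.4% for Dlx6 to 99.0% for Eomes. The lines differed in where they started. At no Cdhr1 the fitted level was -18.7 for Eomes and 38.4 for Th, which is 13.2% of the Th median, and 80.5 for Sp8, 30.9% of its median. It was 665 for Dlx1 (47.1% of the median), 159 for Dlx2 (56.4%), 110 for Dlx5 (59.4%), 83.1 for Dlx6 (68.4%), 1968 for Dcx (64.9%) and 4138 for Meis2 (78.0%). Each 100 reads of Cdhr1 went with 18.6 reads of Eomes, 22.3 of Th, 15.8 of Sp8, 61.3 of Dlx1, 104 of Dcx and 103 of Meis2. The library with the most Cdhr1 bears on these lines, and the log scale slopes below are also given without it.

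On the log2 scale, with group means removed, the slope on Cdhr1 (log2 change per doubling) was 1.36 ± 0.04 (SE) for Eomes, 0.86 ± 0.02 for Th and 0.63 ± 0.02 for Sp8. It was 0.40 for Dlx1, 0.35 for Dlx2, 0.33 for Dlx5, 0.30 for Dcx, 0.23 for Dlx6 and 0.17 for Meis2. All 9 rose with Cdhr1 by limma (the largest adjusted p among them was 7.9e-16 for Dlx6), against 22.4% of the 17924 genes tested rising and 23.7% falling, so a call alone sets few genes apart here. Only 62 genes had a slope above 0.5, and Eomes, Th and Sp8 were among them. Without WT fluoxetine female 3 the slopes of Eomes, Dlx1 and Meis2 were 1.37, 0.39 and 0.16.

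**Figure D3:**
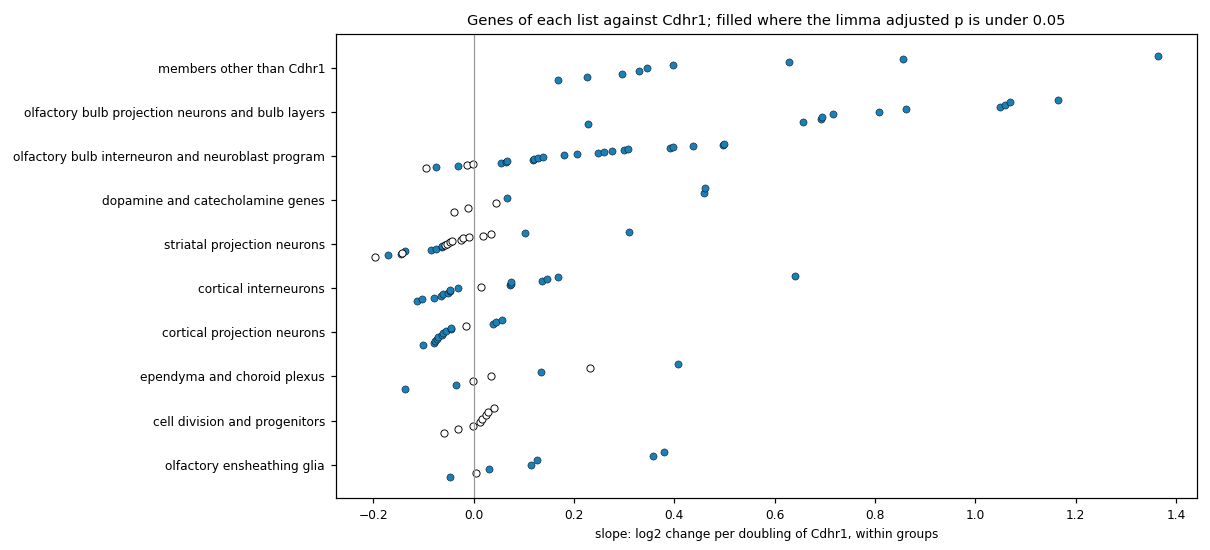
Slope on Cdhr1 (log2 change per doubling of Cdhr1, groups' means removed) of each gene in 10 sets: the 9 other members and 9 lists of context genes. Filled points passed limma's adjusted p of 0.05; the bulb projection list lies to the right of 0 and the cortical projection list mostly to the left of it.

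Other genes of the bulb also rose with Cdhr1. In a list of bulb projection neuron and bulb layer genes, 11 of 11 measured members rose, with a median slope of 0.81. Over all genes 22.4% rose. This list and those below were chosen with earlier results of these data known, so their counts describe these libraries and are not separate support. Tbx21, a T-box factor of mitral and tufted cells, had a slope of 1.17 ± 0.03, and Doc2g, a mitral cell gene, 1.07 ± 0.02. Omp, the marker of olfactory sensory neurons whose axons end in the bulb, had 0.81 ± 0.06 at a median of 23.4 reads (from 2.40 to 397). Tbx21 itself ran from 1.09 to 382 reads and Doc2g from 28.7 to 3571. With quantile normalization, within either set of libraries split by Gm10221 reads and without WT fluoxetine female 3, 11 of 11 rose as well. With 0.1 or 5 added before the log in place of 1, 11 of 11 rose too, with median slopes of 0.99 and 0.65. The size of these slopes thus depends on the value added.

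In the interneuron and neuroblast list, 19 of 24 genes rose with Cdhr1 and 2 fell, with a median slope of 0.16 over the list. The shares over all genes were 22.4% rising and 23.7% falling. Pbx3 (0.50), Igfbpl1 (0.50), Sp9 (0.44), Prokr2 (0.40) and Tshz1 (0.39) had the largest slopes. Gsx2, a ventral patterning factor, did not pass (slope of -0.09), and among 8 genes of cell division and progenitors, with a median slope of 0.01, the smallest limma adjusted p was 0.104 and 0 had an unadjusted p under 0.05; quantile normalization called 1 of them, falling. Mki67, the proliferation marker, had a slope of -0.00 ± 0.03. Among catecholamine genes the dopamine transporter Slc6a3 (0.46 ± 0.03) and the vesicular monoamine transporter Slc18a2 (0.46 ± 0.03) rose, with Ddc at 0.07. Dbh, which makes noradrenaline from dopamine, had a slope of -0.01 ± 0.02.

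Markers of the surrounding tissue were counted in the same way. Over all genes and libraries 22.4% rose and 23.7% fell, and counts near those shares do not set a list apart. Of 14 cortical projection genes 10 fell and 3 rose, and the falls were small: Fezf2, a deep layer factor, fell by 0.10 per doubling and Slc17a7 fell by 0.06. Within libraries with Gm10221 reads 7 fell and 1 rose. Of 20 striatal genes 7 fell and 2 rose, with Drd1 at -0.14, and 11 did not pass. The striatal list depended on the libraries: 12 fell and 0 rose among those with Gm10221 reads, and 4 fell and 3 rose among those without. Of all 17924 genes, 1318 fell and 1480 rose in the libraries with the reads, and 3569 fell and 3332 rose in those without. Of 17 cortical interneuron genes 7 rose, led by Calb2 at 0.64 ± 0.01, a calcium-binding protein also made by periglomerular cells, and 9 fell, including Pvalb at -0.11 and Sst at -0.10. In the list for olfactory ensheathing glia 5 of 7 genes rose, with Fabp7 at 0.38 and Prss56 at 0.36. Of 7 genes of ependyma and choroid plexus 2 rose and 2 fell, with Clic6 at 0.41 ± 0.07 and Ttr, the transthyretin gene of choroid plexus, at 0.23 ± 0.15 without passing.

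Summed over its genes, the bulb projection list ran from 115 to 6733 normalized reads, lowest in HT fluoxetine male 1 and highest in WT fluoxetine female 3, the libraries that are lowest and highest for Cdhr1. The cortical projection list was lowest in WT fluoxetine female 3 (59297, against a median of 79929). As mean log2 levels, each member correlated with the bulb projection list at r of 0.893 to 0.989 (rho 0.887 to 0.984), and with the interneuron and neuroblast list at 0.913 to 0.984 (rho 0.917 to 0.978). Correlations with the cortical projection list ran from -0.821 to -0.665 (rho -0.785 to -0.691). For those 3 lists each of the 10 members had an adjusted p of 1.5e-05 (permutation tests, 90 member and list pairs, 70 of them called). With the striatal list r ran from -0.244 to -0.033 (rho -0.291 to -0.116, smallest adjusted p by permutation 0.145 for r and, for Meis2, 0.0451 for rho), and with cell division from 0.005 to 0.125 (rho 0.036 to 0.181, smallest adjusted p by permutation 0.506 for r and 0.272 for rho). For the dopamine list r ran from 0.833 to 0.919, for cortical interneurons from 0.844 to 0.931, for ensheathing glia from 0.881 to 0.942 and for ependyma from 0.414 to 0.573. The correlation of cortical interneurons is over a list in which 9 of 17 genes fell with Cdhr1 and the median slope was -0.03. Without the 2 farthest libraries the ranges were 0.879 to 0.988 for bulb projection, 0.906 to 0.981 for interneurons and -0.776 to -0.638 for cortical projection genes. Within libraries without and with Gm10221 reads they were 0.933 to 0.988 and 0.827 to 0.990 for bulb projection genes. For the striatal list they were 0.175 to 0.320 without and -0.559 to -0.228 with the reads, of opposite sign.

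The genes most like each member were sought over all 16615 genes with a mean of at least 10 reads, by r of deviations from group means over 58 libraries. For Eomes they were Ms4a15 (0.992), Frmd7 (0.989) and Doc2g (0.983). For Cdhr1 they were Calb2 (0.990), Doc2g (0.988) and Pbx3 (0.987), and for Th Frmd7 (0.988), Doc2g (0.986) and Calb2 (0.984). Sp8 varied most like Pbx3 (0.986), Gng4 (0.985) and Sp9 (0.984), and Meis2 like Gng4 (0.985), Zic1 (0.984) and Ptpro (0.984). Dlx1 was nearest to Gng4 (0.994), Dlx2 to Sp9 (0.986), Dlx5 to Zic1 (0.983) and Dcx to Dlx6os1 (0.989). Dlx6 stood somewhat apart, its nearest genes being Cbln1 (0.953), Dclk2 (0.941) and Isoc1 (0.940).

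The comparisons of the arms asked whether these genes differed by genotype label, drug or sex. None of the 10 members passed in any of the 10 comparisons by limma, at an adjusted or an unadjusted p of 0.05, and none passed with edgeR or DESeq2 on the recovered reads. The smallest adjusted p by limma was 0.325, for Dlx6 under lithium in WT mice. The intervals were wide for the most variable members, so differences of several fold in Eomes or Cdhr1 were not detectable with 9 or 10 mice an arm.

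**Figure D4:**
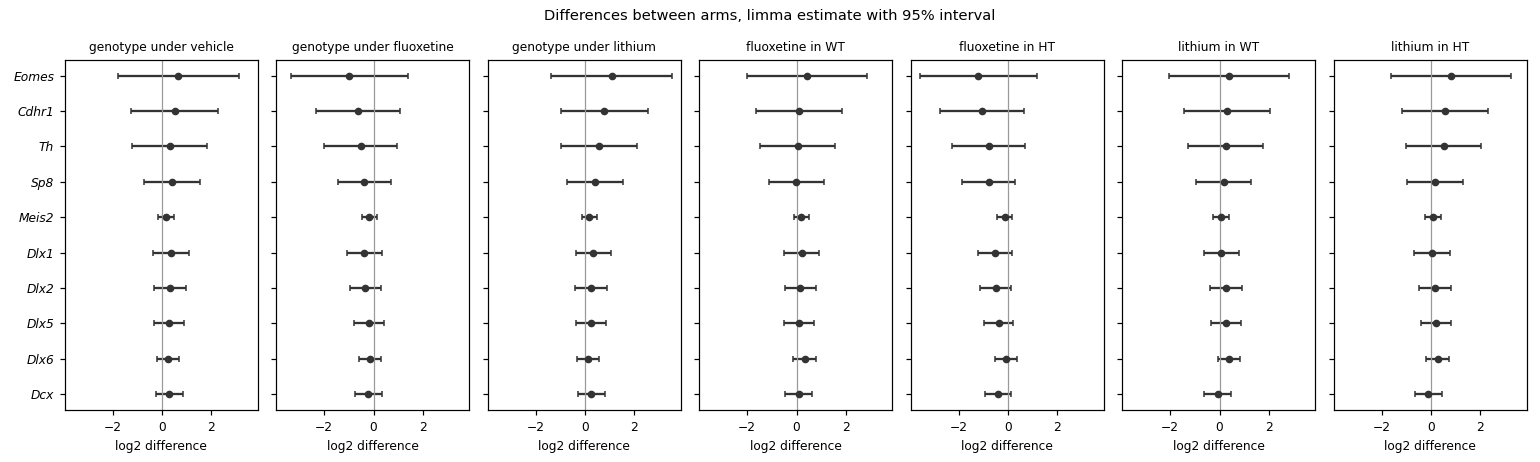
Log2 differences of the 10 genes (HT-labelled minus WT for genotype, drug minus vehicle for drugs) with 95% intervals from limma. Every interval includes 0, and the intervals shorten from Eomes at the top to Meis2.

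In vehicle mice all 10 members were higher in HT-labelled mice, with a median log2 difference of 0.31 and a range of 0.16 to 0.65, none called (limma called 0% of 17925 genes, 814 at unadjusted p under 0.05, edgeR 0 and DESeq2 3). Eomes differed by 0.65 ± 1.22 (SE) and Cdhr1 by 0.52 ± 0.88 (limma adjusted p = 0.961, 95% interval -1.24 to 2.27). Under fluoxetine all 10 were lower in HT-labelled mice, with a median of -0.35 (0% called by limma, 1114 genes unadjusted, edgeR 0 and DESeq2 2). Under lithium all 10 were higher, with a median of 0.29 (0% called by limma, 2006 genes unadjusted, edgeR 0 and DESeq2 14). The 10 directions in a comparison are not separate observations, since the members correlate in single libraries.

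Fluoxetine in WT mice went with 9 members higher and 1 lower, with a median of 0.13 (1.38% of all genes called). Cdhr1 differed by 0.10 ± 0.88, and it fell below vehicle without WT fluoxetine female 3 (-0.26) and among the libraries without Gm10221 reads (-0.63). In HT-labelled mice all 10 members were lower under fluoxetine, with a median of -0.51 (3.54% of all genes called). There Eomes differed by -1.21 ± 1.18, Cdhr1 by -1.04 ± 0.85 (limma adjusted p = 0.572, interval -2.74 to 0.66), Sp8 by -0.79 ± 0.54 and Dlx2 by -0.50 ± 0.31 (adjusted p = 0.434). Meis2 differed by -0.13 ± 0.15. The difference between the genotypes in the fluoxetine effect had a median of -0.70 over the members and was called for none (0% called by limma, 1128 genes unadjusted, edgeR 0 and DESeq2 2). The bulb projection list, with 0 of 11 genes called, had a median of -0.57 in HT-labelled mice.

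Lithium in WT mice went with 9 members higher, with a median of 0.25 (7.47% of all genes called), and in HT-labelled mice with 9 higher, with a median of 0.18 (16.3% called). Dcx was the member below vehicle in both, by -0.07 ± 0.27 and -0.12 ± 0.27. Dlx6 differed by 0.39 ± 0.23 in WT (limma adjusted p = 0.325, interval -0.06 to 0.84) and by 0.26 ± 0.23 in HT-labelled mice (0.474). The 2 lithium comparisons and the 2 fluoxetine comparisons share the vehicle libraries of their genotype. The difference between the genotypes in the lithium effect was called for no member (median -0.02; 0% called by limma, 1196 genes unadjusted, edgeR 0 and DESeq2 4). Between the sexes 6 members were higher and 4 lower in females, with a median of 0.03 (0.301% called), and Cdhr1 differed by 0.34 ± 0.50. All lithium libraries and no vehicle library had Gm10221 reads, so for these contrasts lithium and the reads cannot be told apart within the table.

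Several genes of the context lists did pass the drug comparisons. By limma, Penk rose under lithium in WT (0.71 ± 0.18, adjusted p = 0.00936) and in HT-labelled mice (0.67 ± 0.18, adjusted p = 0.00766), as did Tac1 (0.53 and 0.62) and Tubb3, a neuronal tubulin (0.14 and 0.23). Cck rose under lithium in both and under fluoxetine in HT-labelled mice (0.29 ± 0.08, adjusted p = 0.0265).

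**Figure D5:**
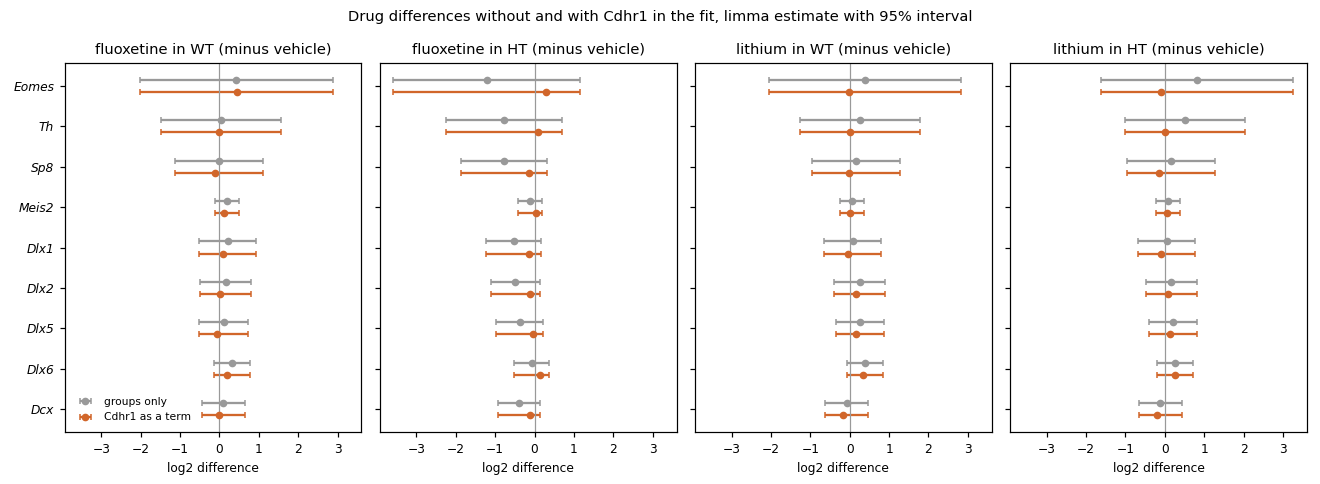
Log2 difference between drug and vehicle for the 9 members other than Cdhr1, with groups only (grey) and with a spline of log2 Cdhr1 in the fit (orange). Bars of both colours end at the 95% limits of the limma fit on groups only. The orange bars thus do not show the error with Cdhr1 in the fit. With Cdhr1 in the fit, the limma 95% interval of Dlx6 under lithium in WT mice was 0.16 to 0.49. Under lithium the points of Dlx6 lie to the right of 0 and those of Dcx to the left of it.

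Because the members shared most of their variance, the arms were compared again at the same Cdhr1 level, with a natural spline of log2 Cdhr1 as a term. This fit was added after the data were seen. The SE of Dlx6 under lithium in WT mice went from 0.23 to 0.08. Over all genes the calls went from 1339 to 2260 for lithium in WT (all 1339 shared), from 2919 to 3909 in HT-labelled mice (2835 shared), from 248 to 342 for fluoxetine in WT (236 shared) and from 635 to 784 in HT-labelled mice (485 shared).

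At equal Cdhr1, Dlx6 was higher under lithium in WT mice by 0.33 ± 0.08 (limma adjusted p = 0.00491, 12.6% of genes called) and in HT-labelled mice by 0.25 ± 0.08 (adjusted p = 0.0286, 21.8% called). Dcx was lower under lithium in HT-labelled mice by -0.20 ± 0.07 (adjusted p = 0.0259) and differed by -0.16 ± 0.06 in WT without passing (adjusted p = 0.0880). The antisense gene Dlx6os1, which overlaps Dlx6 on the opposite strand, was lower in both, by -0.31 ± 0.07 (adjusted p = 0.00241) and -0.35 ± 0.07 (adjusted p = 0.000427), so that the overlapping pair moved in opposite directions. Meis2 was higher under fluoxetine in WT mice by 0.12 ± 0.03 (limma adjusted p = 0.0123, 1.91% called). Sp8 was lower in females by -0.22 ± 0.05 (limma adjusted p = 0.0390, 0.781% called). With groups only, Sp8 differed between the sexes by -0.01 ± 0.32 and Cdhr1 was higher in females by 0.34 ± 0.50, neither called. At equal Cdhr1 the other members also lay below 0 for females, from -0.35 for Eomes to -0.01 for Meis2, without passing. The Sp8 difference is thus relative to Cdhr1. Under fluoxetine in HT-labelled mice none of the 9 was called (4.37% called), nor for genotype under lithium (0.0558% called). Eomes, Th, Dlx1, Dlx2 and Dlx5 were called in none of the 10 comparisons.

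These calls depended on the terms of the fit. With a straight line of Cdhr1 in place of the spline, Dlx6 in HT-labelled mice differed by 0.14 ± 0.11 (limma adjusted p = 0.393) and Sp8 between the sexes by -0.22 ± 0.06 (0.0587). That fit called 10.7% of all genes for lithium in WT, 22.6% in HT-labelled mice and 2.03% for fluoxetine in WT. Leaving out 1 library at a time ended the spline call of Dlx6 in HT-labelled mice in 7 of 58 fits and that of Sp8 in 24. In a fit with Gm10221 reads as a further term, and with sex as an additive term in place of the 12 groups, none held. The reads and the change of the sex model were not fitted apart, so the loss cannot be credited to either. Under lithium in WT and HT-labelled mice Dlx6 then differed by 0.20 ± 0.14 and 0.14 ± 0.14 (limma adjusted p of 0.533 and 0.688) and Dlx6os1 by -0.33 ± 0.12 and -0.38 ± 0.12 (0.208 and 0.129). Dcx in HT-labelled mice differed by -0.23 ± 0.11 (limma adjusted p = 0.314), a difference no smaller than in the spline fit on groups but with a larger error. Meis2 under fluoxetine in WT differed by 0.11 ± 0.03 (0.0576) and Sp8 between the sexes by -0.16 ± 0.06 (0.228). For the lithium contrasts the reads and the drug cannot be told apart. With the mean of the bulb projection list in place of Cdhr1, limma called Dlx6 in WT (adjusted p = 0.0133) and Dlx6os1 in both (0.00776 and 0.00235). In that fit Dlx6 and Dcx under lithium in HT-labelled mice were not called (limma adjusted p of 0.0529 and 0.0642). Meis2 under fluoxetine in WT and Sp8 between the sexes were not called either (limma adjusted p of 0.123 and 0.315).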

How the data were processed

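RNA was measured by sequencing of polyadenylated RNA in 58 libraries, one a mouse. The deposited table holds normalized counts, a signal in reads divided by a size factor; the authors made it with DESeq2 1.19.11, R 3.6.0, Salmon 0.11.2 and GRCm38, per the submitters' processing notes. Values were whole multiples of a step of 0.788 to 1.30 in each column (100% whole within 0.01), which gave the reads; in 11 columns the step is too near 1 to tell this from rounding. As the values are normalized, limma 3.58.1 with trend was fitted to log2(value + 1) over 17925 genes with at least 10 in 4 libraries, on 12 groups with sexes weighed equally; differences are log2 with SE. Calls have a two-sided Benjamini-Hochberg adjusted p under 0.05 over all genes. edgeR 4.0.16 and DESeq2 1.42.0 on the reads, other filters, pseudocounts of 0.1 and 5, quantile normalization, only the groups compared, Gm10221 terms and leaving out libraries were alternatives. Symbols and positions came from GENCODE on GRCm38. Named were the members, the 3 genes most like each, and context genes that are most abundant or pass a test; other context genes were chosen after their values were seen. Members and lists were chosen with earlier results of these data known. Separate mice are taken from the sample titles, and p-values measure the spread between these libraries. The labels name no dam or litter, and the drugs reached the pups in maternal milk. How many dams stand behind an arm is thus unknown. Pups of the same dam would not be separate units for a drug, and the drug p-values take no account of this. The limma fit on groups and the straight-line slope on Cdhr1 were tested on simulated data. Genes there shared no variation beyond the effects put in, unlike the real libraries. The spline fit, edgeR and DESeq2 were not tested in this way. Size factors assume that most genes do not change. Some genes of the context lists are not reported here by name.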

Additional observations from a re-analysis of the deposited data

Results flagged for a closer look

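In groups of 4 or 5 mice, 21 of 120 combinations of gene and group held 1 library far from the others by Dixon's ratio. The ratio was taken on normalized reads without a log. Its usual rate of 1 in 20 assumes normally distributed values. Within a group the reads spread widely, as with Eomes in WT fluoxetine females (316-fold), so that rate is no yardstick here. The flagged combinations fell on 4 libraries, and since the 10 genes vary together they are not separate events. WT fluoxetine male 5 was far above the other males of its group for all 10 genes: Eomes 712, Cdhr1 3749, Th 973, Sp8 662, Meis2 8417, Dlx1 3220, Dlx2 567, Dlx5 371, Dlx6 232 and Dcx 6013 normalized reads, against Cdhr1 levels of 94.9 to 491 in the other 4. WT vehicle male 3 was far above its group for Eomes (531), Cdhr1 (3036), Th (699.9 against at most 166) and Dcx (4863). HT fluoxetine male 3 stood above for Eomes (653), Cdhr1 (3742) and Dlx6 (226). HT lithium male 4 stood below its group for Cdhr1 (634 against at least 1711), Dlx1 (913), Dlx2 (234) and Dlx5 (164). What sets these libraries apart was not tested.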

How the results depend on the processing

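Over the alternative fits on groups, single libraries left out included, none of 6949 tests of a member was called, and the smallest adjusted p by the tools used was 0.167. The direction of the Cdhr1 difference under fluoxetine in WT, 0.10 in the report, turned to -0.473 with a Gm10221 term, -0.631 without those libraries, -0.256 without the library highest in the members and -0.0067 with the replicate block, and ran from -0.290 to 0.4996 when single libraries were left out, WT fluoxetine male 5 and WT vehicle male 3 giving the ends. With the Gm10221 term Cdhr1 turned to -1.59 and -1.32 under lithium in WT and HT-labelled mice and to -0.160 between the sexes. Dlx6 turned to -0.158 and -0.264 under lithium in WT and HT-labelled mice. This fit took sex as an additive term in place of the 12 groups. Every lithium library and no vehicle library had the reads, so the fluoxetine libraries alone set the Gm10221 term. Its lithium values carry that term over and are not separate estimates of the lithium effect. Why the sex difference turned was not tested. Dcx under lithium in WT ran from -0.172 to 0.052 with single libraries left out. With Cdhr1 as a straight-line term 1 member was called for fluoxetine in WT, 1 for lithium in WT and 1 in HT-labelled mice; with the spline the counts were 1, 1 and 2, and 1 for sex. Over all genes the straight line called 2.03%, 10.7% and 22.6% and the spline 1.91%, 12.6% and 21.8%, so 1 or 2 of 9 members under lithium is near the share over all genes. In the spline fit leaving out 1 library ended the call of Dcx in HT-labelled mice in 4 cases, of Dlx6 there in 7, of Meis2 in 1 and of Sp8 in 24 (adjusted p up to 0.0740, 0.0827, 0.0669 and 0.0763); the straight line ended those of Dlx6 in HT-labelled mice (0.393) and Sp8 (0.0587), and edgeR that of Sp8 (0.0942). Replicate numbers, those of the sample titles, which for WT vehicle males 3 and 4 differ from the library names, did not pair the samples: the mean correlation of deviations was -0.000172 over 309 pairs with the same number and 3.85e-05 over 1232 others. With the replicate block no member was called in the fit on groups, and of the calls at equal Cdhr1 only Dlx6 in HT-labelled mice was lost (0.0579). Genes varying with Cdhr1 numbered 8255, 7536 to 8562 with single libraries left out, and 2798 within libraries with Gm10221 reads; quantile normalization gave 3649 rising and 4617 falling against 4008 and 4247. Lithium could not be compared among libraries without Gm10221 reads, and fluoxetine in HT-labelled mice only in males.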
